A study of Homo sapiens with 3 samples.

Results

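The ATP-binding cassette (ABC) transporter genes were taken as the hg38 protein-coding genes whose symbol is ABC followed by a subfamily letter from A to G and a number, together with CFTR. This gave 47 records of 20037 protein-coding genes on the primary chromosomes. They stand for 46 separate loci, because ABCF2-H2BK1 is a read-through record that shares the 5′ end of ABCF2. Peaks of acetylated lysine 27 of histone H3 (H3K27ac) and of the deacetylase SIRT1 were assigned to a record when their summit lay inside it or within 1 kb of either end. ABCA1 and ABCG1, the cholesterol exporters of macrophages, were also examined with 50 kb on both sides.

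ABC transporters hydrolyse ATP to move lipids, drugs, peptides, ions or metabolites across membranes, and a few members of the fold lack a membrane domain and act on ribosomes instead. In macrophages the family is best known for cholesterol efflux, in which ABCA1 loads lipid-poor apolipoprotein A-I and ABCG1 passes sterol to maturing high-density lipoprotein; both are textbook targets of the liver X receptors. H3K27ac is found at active promoters and enhancers, and SIRT1 is an NAD-dependent enzyme that removes acetyl groups from histones and from other proteins.

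All 3 samples were wild-type cells of THP1, a line from a human monocytic leukaemia. They were exposed for 24 h to PMA, a phorbol ester under which THP1 cells stop dividing, attach and take on features of macrophages. There was 1 library for H3K27ac, 1 for SIRT1 and 1 input, whose signal was not analysed here, and no sample without PMA or without SIRT1 was among them. The design text gives the aim as finding genes that the 2 antibodies could mark. Because each antibody has 1 library, nothing could be checked against a replicate: no test was made, and every share below is a description set beside the same share over all genes.

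The primary chromosomes held 48735 H3K27ac and 95517 SIRT1 peaks. Marker genes were looked at for an H3K27ac summit at a gene end, which 53.0% of all protein-coding genes had: 7 of 10 macrophage and monocyte genes had one (SPI1 at a fold of 109, CEBPB at 92.2, CD68 at 42.0), and FCER1G, LYZ and TYROBP did not. Of 5 genes each, the mark was at 0 T cell, 1 B cell (CD79A, 6.96), 0 hepatocyte and 0 epithelial genes. The macrophage count alone is not far from the share of all genes. Here and below, fold is the authors' own value at the summit, a ratio to the local background, and it was read only within its own list. The depth of sequencing is not stated in the sources used here and shows only through the fragments at each summit. These were recovered from the fold and the −log10 p that the authors deposited, and they show counting depth only. The 108 H3K27ac peaks of the ABC records had a median of 14 fragments at the summit, whereas 86.2% of their 160 SIRT1 peaks had 2 or 3.

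Promoter sequences were available from RefSeq (GRCh38.p14) for 37 of the 47 records, which also gives their strand. The records with no entry include ABCA4, ABCA8, ABCB4, ABCB5, ABCC1, ABCC3, ABCC8 and ABCG1, and for these the ends are called lower and upper by coordinate. The 6 promoters below carry the contrast, described further on, between starts with and without an H3K27ac summit. Each is given as the 250 bases before the RefSeq start, 5′ to 3′, with every CG dinucleotide in capitals. The first 3 belong to the members with the highest H3K27ac fold at a known start.
ABCA1 promoter, chr9:104928156-104928405, minus strand: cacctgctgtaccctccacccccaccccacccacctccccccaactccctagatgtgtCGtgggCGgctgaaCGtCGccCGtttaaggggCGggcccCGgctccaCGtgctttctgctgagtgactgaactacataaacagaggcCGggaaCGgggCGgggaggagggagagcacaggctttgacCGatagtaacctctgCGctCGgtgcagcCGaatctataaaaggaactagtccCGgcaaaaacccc
ABCB9 promoter, chr12:122975115-122975364, minus strand: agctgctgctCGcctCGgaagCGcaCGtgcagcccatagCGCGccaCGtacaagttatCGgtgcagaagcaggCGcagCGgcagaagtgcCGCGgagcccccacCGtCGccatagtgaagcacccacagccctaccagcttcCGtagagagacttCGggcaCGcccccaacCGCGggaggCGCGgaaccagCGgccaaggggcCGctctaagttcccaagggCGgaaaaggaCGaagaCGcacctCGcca
ABCE1 promoter, chr4:145098061-145098310, plus strand: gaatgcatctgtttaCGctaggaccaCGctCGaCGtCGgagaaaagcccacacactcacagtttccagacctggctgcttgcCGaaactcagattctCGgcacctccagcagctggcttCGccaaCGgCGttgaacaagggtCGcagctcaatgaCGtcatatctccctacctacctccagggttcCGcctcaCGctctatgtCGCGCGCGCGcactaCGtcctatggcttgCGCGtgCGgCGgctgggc
The next promoter is that of ABCD3, whose RefSeq start lies 33258 bp inside the record and separates 2 H3K27ac summits.
ABCD3 promoter, chr1:94418139-94418388, plus strand: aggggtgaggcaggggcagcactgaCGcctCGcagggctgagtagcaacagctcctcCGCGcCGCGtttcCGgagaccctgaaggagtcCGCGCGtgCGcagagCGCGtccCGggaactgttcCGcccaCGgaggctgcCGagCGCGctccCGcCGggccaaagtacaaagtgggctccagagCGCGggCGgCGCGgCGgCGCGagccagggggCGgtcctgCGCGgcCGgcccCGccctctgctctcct
The last pair belongs to 2 canalicular transporters of hepatocytes, neither of which had an H3K27ac summit at its start.
ABCB11 promoter, chr2:169031325-169031574, minus strand: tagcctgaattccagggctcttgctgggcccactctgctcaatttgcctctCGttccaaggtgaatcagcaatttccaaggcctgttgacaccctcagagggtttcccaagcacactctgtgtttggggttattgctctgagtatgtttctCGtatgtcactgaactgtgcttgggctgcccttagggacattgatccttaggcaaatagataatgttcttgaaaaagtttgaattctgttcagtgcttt
ABCC2 promoter, chr10:99782390-99782639, plus strand: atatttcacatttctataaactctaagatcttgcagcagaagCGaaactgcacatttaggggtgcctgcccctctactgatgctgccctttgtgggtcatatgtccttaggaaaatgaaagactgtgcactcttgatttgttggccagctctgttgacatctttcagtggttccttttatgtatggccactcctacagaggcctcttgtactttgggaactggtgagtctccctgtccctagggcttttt

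H3K27ac lay at a gene end of 20 of the 47 records, or 42.6%, beside 53.0% of all protein-coding genes. A further 11 records had the mark only inside, and 16 had none. At the 5′ end of records with known strand it was present at 14 of 37, or 37.8%, against 53.3% of all genes. At the 3′ end it was present at 1 of 37, or 2.7%, against 7.22%; the record is ABCB8, with a small peak of 3.05-fold that also lies at an end of ASIC3. When any RefSeq start was allowed the count was 18 of 37, or 48.6%, against 57.3%. Both shares at starts were below those of all genes, and no test of these gaps was made. With a window of 500 bp in place of 1 kb the number of records marked at an end was 12, and ABCA1 and ABCG1, with summits 519 and 504 bp from an end, were among those lost. The share of all genes at 500 bp is not given here, so this count cannot be set beside the 53.0% at 1 kb.

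Start peaks lay mostly just downstream of the start. Of the 14 records with a start-side peak, the strongest summit lay downstream of the start in 13. Over the 14 the median position was 215 bp downstream, and the range ran from 799 bp upstream to 634 bp downstream. ABCF2 and its read-through record both enter these counts with the same peak, 332 bp downstream. The strongest end peak of the 20 records had a median fold of 14.2, from 2.81 at ABCA4 to 78.4 at ABCA1, and over the 10623 acetylated genes the median was 17.8. An end fold as high as that of ABCA1 was found at 2.24% of acetylated genes; 3.56% reached ABCB9, 7.6% reached ABCB4 and 16.3% reached ABCE1. Of these 20 strongest peaks, counted by record, 7 also lay within 1 kb of an end of another record. ABCF2 and its read-through record each count among the 7 through the same peak at their shared start, with no other gene end within 1 kb. The rest cannot be assigned to the ABC gene alone. They include the peaks of ABCA2 (shared with FUT7), ABCB9 (OGFOD2), ABCD4 (VRTN) and ABCE1 (ANAPC10).

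**Figure D1:**
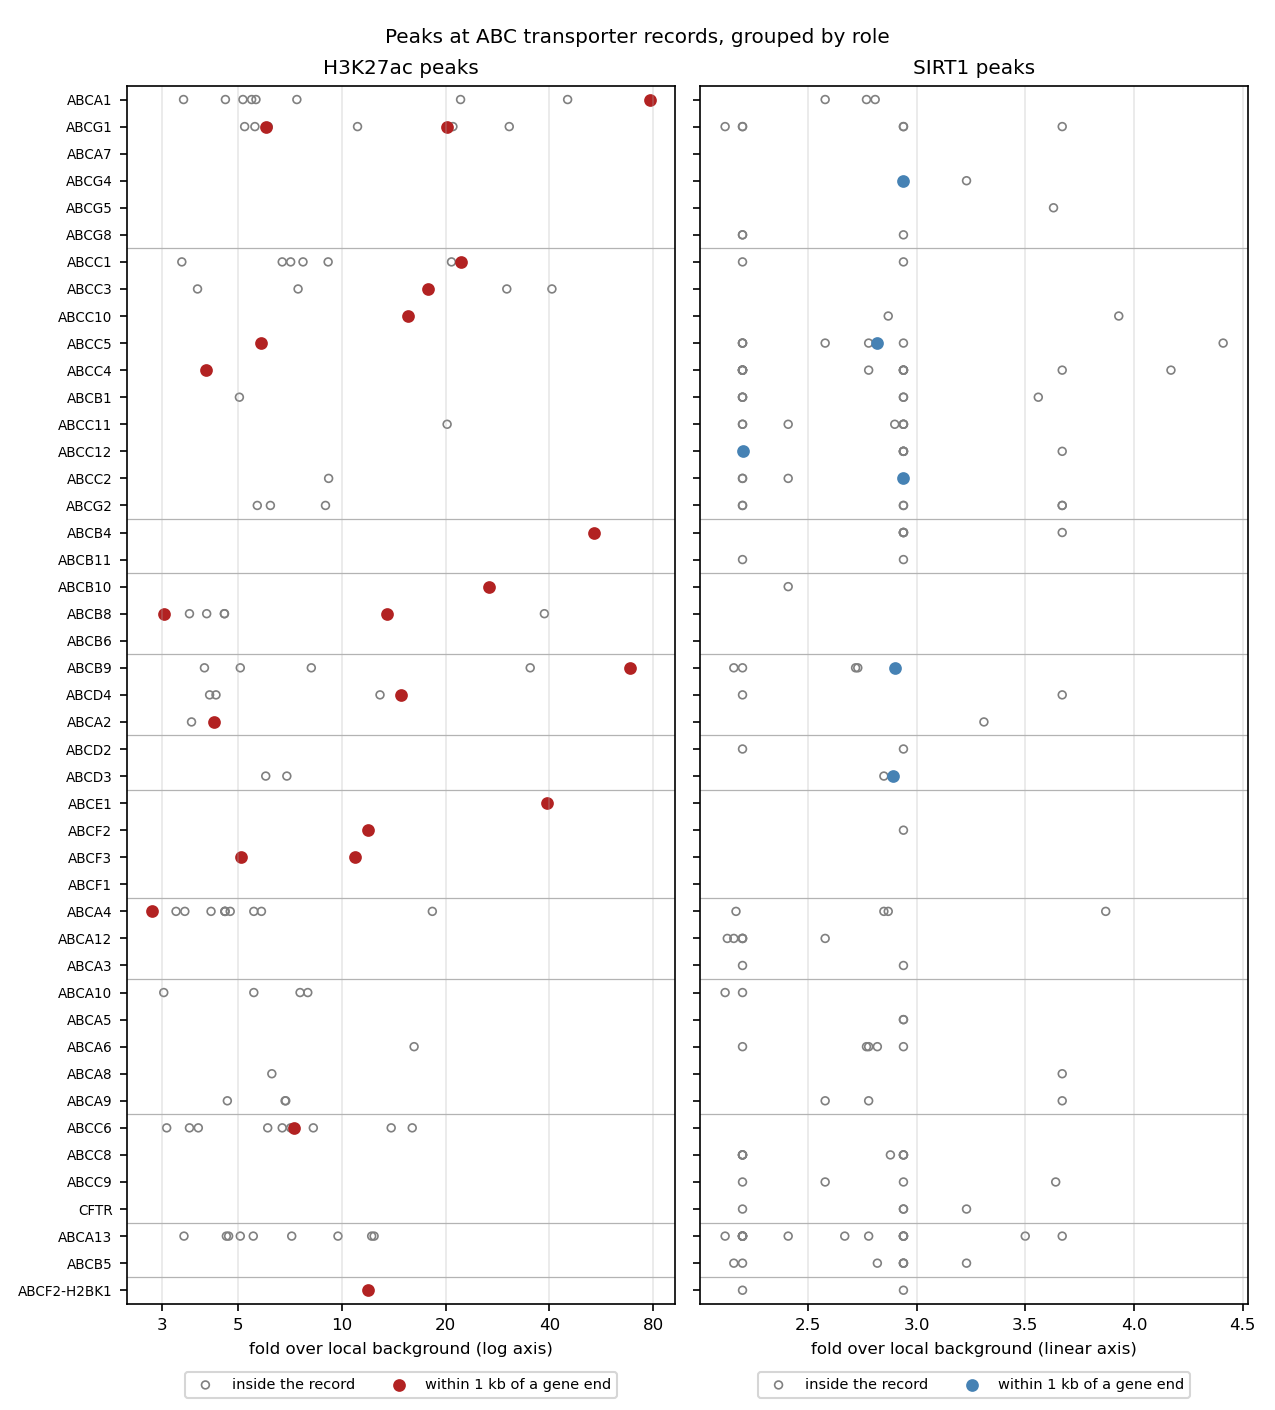
Each point is a peak at an ABC transporter record described in the text, with the authors' fold over local background on the x axis (log for H3K27ac, linear for SIRT1) and the records in rows, separated by lines into the roles used in the text. Filled points lie within 1 kb of a gene end, and open points lie inside the record. H3K27ac end peaks run from 2.81 at ABCA4 to 78.4 at ABCA1, whereas the SIRT1 peaks lie between 2.12 and 4.41 with most at the same few values, and 86.2% of the 160 rest on 2 or 3 fragments.

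By subfamily, H3K27ac was at a gene end, beside 53.0% of all protein-coding genes, in 3 of 12 ABCA, 6 of 11 ABCC, 1 of 1 ABCE, 3 of 4 ABCF and 1 of 5 ABCG records, and not at CFTR. Grouped by role, where each role holds few genes, all 3 lysosomal members and 3 of 4 members that act in translation were marked at an end. None of the 5 ABCA5-like members was. With so few genes in each subfamily and role, nothing is read from how these counts stand to the 53.0% of all genes.

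Among the 6 exporters of cholesterol and phospholipid, ABCA1 and ABCG1 were acetylated at an end and the other 4 were not, beside 53.0% of all protein-coding genes. ABCA1 (chromosome 9, 104781006 to 104928155, minus strand) had a start peak from 104924899 to 104928830 with a fold of 78.4, its summit 519 bp downstream of the start. ABCG1 (chromosome 21, 42199689 to 42297244) had a peak of 20.2-fold with its summit 504 bp inside the lower end and a second of 6.01-fold 571 bp outside it. ABCA7, a phospholipid exporter, ABCG4, a sterol exporter best known from brain, and ABCG5 and ABCG8, whose products form the sterol exporter of liver and intestine, had no H3K27ac summit at an end or inside. The closest was a peak of 5.81-fold 1606 bp upstream of the ABCA7 start, at an end of CNN2.

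The ABCA1 locus was acetylated well beyond its start. In the window of 247 kb there were 15 H3K27ac peaks, 9 inside the record, 3 below and 3 above it, which together spanned 32.1 kb. That is 6.07 summits per 100 kb, against a median of 2.37 over the windows of all genes, and 21.8% of genes had a window as dense or denser. The highest peak of the window was not at the start: it ran from 104968061 to 104969777, outside the record and 40.3 kb upstream of the start, with a fold of 79.7. Of 38038 H3K27ac peaks away from every protein-coding gene end, 147 (0.386%) had a fold as high. Inside the record, 58.5 kb downstream of the start, lay a domain from 104862804 to 104875296 with a fold of 45.2. Its width was 12493 bp, whereas peaks away from gene ends had a median width of 585 bp and 73 of them (0.192%) were as wide. These 2 peaks were picked for their height and width but ranked against single peaks. The highest and widest peaks of other genes' windows were not compared. Another internal peak ran from 104834375 to 104837584, 93.3 kb downstream of the start, with a fold of 22.1. The remaining internal peaks had folds from 3.47 to 7.4. The 3 peaks below the record lay at or in the neighbouring genes NIPSNAP3A (12.0-fold) and NIPSNAP3B (6.4 and 15.7-fold), so they cannot be assigned to ABCA1. SIRT1 had 3 peaks in the window, at 18.8, 96.6 and 118 kb from the lower end, with folds of 2.58, 2.77 and 2.81, 3 fragments each and a −log10 q of 0. None lay at an end or overlapped an H3K27ac peak, and at 1.21 per 100 kb they were sparser than the median window (2.74); 79.6% of genes had at least that density.

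At ABCG1, H3K27ac lay below the record and inside it as far as 49.6 kb from the lower end. Its window of 198 kb also held 15 H3K27ac peaks, of which 8 lay below the record of 97.6 kb, 7 inside it and none above. They spanned 15.1 kb, less than the peaks of the ABCA1 window, at 7.59 summits per 100 kb, a density that 15.7% of genes reached. Its highest peaks were 30.6-fold (42227208 to 42229413, 28.9 kb into the record), 23.5-fold (42187500 to 42189265, 11.6 kb below it) and 21.0-fold (42231809 to 42235686, 35.5 kb in). The peak at the end, 20.2-fold, was thus lower than 3 others of its window, whereas at ABCA1 the start peak was lower than 1. SIRT1 had 9 peaks here, 6 inside, 1 below and 2 above, at 4.56 per 100 kb, a density that 18.9% of genes reached. Of these 9, 4 lay beyond the last H3K27ac summit inside the record, and 2 lay above the record, in the stretch that holds the trefoil factor genes TFF3 and TFF2. The highest had a fold of 3.67 on 4 fragments with a −log10 q of 0.175, and the other 8 had 2 or 3 fragments and a −log10 q of 0.

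**Figure D2:**
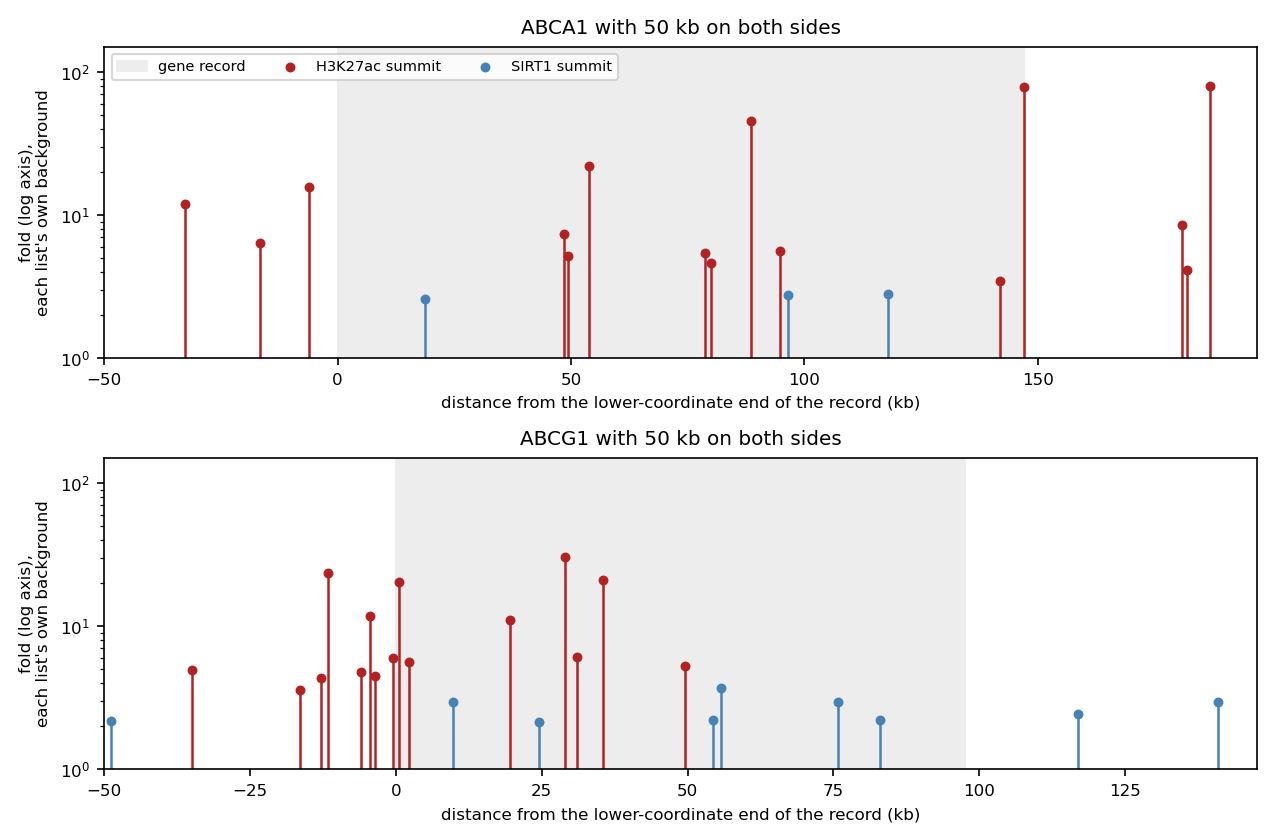
Summits of H3K27ac and SIRT1 peaks in the ABCA1 and ABCG1 windows, by distance in kb from the lower-coordinate end of the record (x axis) and the authors' fold on a log axis (y axis), each list relative to its own background. The shaded band is the gene record. At ABCA1, 78.4-fold and 79.7-fold peaks stand at the start and 40.3 kb beyond it; at ABCG1 no H3K27ac summit lies above the record or farther than 49.6 kb into its 97.6 kb.

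The listed genes that work with these exporters were all acetylated at an end. The list held nuclear receptors and their partners, sterol regulators, lipid transfer and lipoprotein genes, and was chosen from textbook knowledge of the pathway with earlier results of these data known, so its count is no independent evidence. All 16 had an H3K27ac summit at a gene end and none had a SIRT1 summit there, beside 53.0% and 9.34% of all genes. The list leaves out APOA1, the hepatocyte gene for the acceptor that ABCA1 loads, which had no H3K27ac summit at an end or inside. PPARG, a lipid-sensing nuclear receptor, had the highest fold at 50.4. It was followed by SREBF1 at 46.4, NR1H3, which encodes liver X receptor alpha, at 44.7, and SREBF2, the regulator of cholesterol synthesis, at 39.7. NR1H2 (liver X receptor beta) stood at 31.4, and the retinoid X receptor genes RXRA and RXRB, whose products pair with these receptors, at 30.3 and 20.1. MYLIP, whose product marks the low-density lipoprotein receptor for degradation, had 17.8, and the phospholipid-remodelling gene LPCAT3 had 16.9. NPC1 (29.0) and NPC2 (17.7) release cholesterol from lysosomes, and SCARB1 (18.3) is a receptor for high-density lipoprotein. Apolipoprotein genes were marked at 31.9 for APOC1 and 8.32 for APOE, with the lipase gene LPL at 12.8, and the lowest was LCAT, the plasma cholesterol esterifying enzyme, at 4.23. ABCA1 thus had a higher end fold than all 16, and ABCG1 had a higher one than 8 of them. Whether the end peaks of the 16 also lie at an end of another gene was not checked.

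Of the 10 genes for efflux of drugs, conjugates and organic anions, 5 were acetylated at an end, beside 53.0% of all protein-coding genes. ABCC1, which exports glutathione conjugates and leukotriene C4, had 22.2-fold at its lower end and 6 more peaks inside, up to 20.8-fold. ABCC3, an exporter of bile acids and glucuronides, had 17.8-fold at its lower end, but its highest peaks lay inside at 40.7-fold (50657878 to 50664137 on chromosome 17) and 30.1-fold (50636573 to 50642983), and the peaks with summits inside had a summed width of 18.3 kb in a record of 57.4 kb. ABCC10 had 15.6-fold at its start with no other H3K27ac summit. ABCC5 and ABCC4, both exporters of cyclic nucleotides, had single start peaks of 5.84-fold and 4.03-fold. The highest end folds of this role were therefore those of ABCC1 and ABCC3.

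The 2 classical drug efflux pumps had no H3K27ac at the ends of their records and low H3K27ac folds at internal starts. ABCB1, which encodes P-glycoprotein, had a single peak of 5.04-fold, 160 bp downstream of a RefSeq start that lies inside the record. ABCG2, the breast cancer resistance protein, had peaks of 8.96, 6.2 and 5.68-fold inside, the first 78 bp upstream of an internal start and at an end of LOC124900867. ABCC11 had 1 peak of 20.2-fold 85 bp from an internal start, but the same summit lies at an end of LONP2, a peroxisomal protease gene. ABCC2, the canalicular exporter of conjugated bilirubin, had a single H3K27ac peak of 9.15-fold 57577 bp from its start, and ABCC12 had no H3K27ac peak.

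The 2 genes placed in the bile canalicular role differed. ABCC2, also canalicular, was placed with the efflux genes above. ABCB4, which moves phosphatidylcholine into bile, had a peak of 53.9-fold from 87473375 to 87476272 on chromosome 7, its summit 524 bp inside the upper end. ABCB11, the bile salt export pump, had no H3K27ac summit at an end or inside its 116 kb, which includes the start whose promoter is printed above. ABCB4 and ABCB1 are neighbours on chromosome 7, and their records carried 53.9-fold and 5.04-fold as highest values.

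Transporters of lysosomes were marked at an end, as were ABCB8 and ABCB10 of mitochondria. In the lysosome, ABCB9, a peptide transporter related to the TAP proteins, had 68.6-fold at its start (122974083 to 122976762 on chromosome 12, summit 117 bp downstream), the second highest end peak of the family, and an internal peak of 35.2-fold that was 6400 bp wide. ABCD4, which exports cobalamin from lysosomes, had 14.8-fold at its start and 3 internal peaks up to 12.9-fold. ABCA2 had 4.26-fold, 799 bp upstream of its start and shared with FUT7. TAP1 and TAP2 themselves, ABC proteins that load peptides for antigen presentation and fall outside the symbol rule, had 10.9-fold and 6.4-fold at an end. In mitochondria, ABCB10, which serves haem synthesis, had 26.8-fold at its start. ABCB8 had 13.5-fold at its start and a broad internal peak of 38.7-fold, 8852 bp wide, within a record of 19.3 kb. ABCB6 had no summit at an end or inside.

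The peroxisomal genes ABCD2 and ABCD3 had no H3K27ac summit at the record ends by the 1-kb rule, yet acetylation was found near a start of ABCD3. At ABCD3, which encodes an abundant peroxisomal membrane protein, the 2 peaks of 6.92-fold and 6.01-fold lay 474 bp upstream and 209 bp downstream of the RefSeq start inside the record, on either side of the promoter printed above. ABCD2, a fatty acid importer, had none.

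In translation, ABCE1, which splits ribosomes after termination, had 39.4-fold from 145096924 to 145100063 on chromosome 4, its summit 235 bp downstream of the start. ABCF2 had 11.9-fold and ABCF3 10.9-fold at their starts, and ABCF3 had a second start peak of 5.08-fold. ABCF1, a factor in translation initiation, had no peak of either mark at its ends or inside. It lies in the major histocompatibility region of chromosome 6. There 22 of 61 protein-coding genes within 1 Mb (36.1%) had H3K27ac at an end, beside 53.0% of all protein-coding genes. The H3K27ac list also held 551 peaks on alternate contigs of chromosome 6, and the treatment of reads that match both copies is not given in the sources used. Their part in the empty ABCF1 record was not tested.

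The remaining roles belong mostly to other tissues. Their H3K27ac peaks, the only ones described in this paragraph, lay mostly inside the records. In the whole list 38038 of 48735 H3K27ac peaks lay away from every protein-coding gene end, so this does not set these roles apart. ABCA4, a retinal lipid transporter, had the lowest end value of the family, 2.81-fold at its lower end, and 11 internal summits in all, all in the lowest 26607 bp of a 128 kb record, with the highest at 18.3-fold. ABCA3 of lung surfactant and ABCA12 of the skin barrier had no H3K27ac summit. The nearest to ABCA12 was 5.51-fold, 1749 bp upstream of its start. The ABCA5-like genes form a cluster on chromosome 17, and 4 of the 5 had only internal peaks, the highest being 16.2-fold at ABCA6, 7.96 at ABCA10, 6.87 at ABCA9 and 6.26 at ABCA8. ABCA5 itself had none. CFTR, the epithelial chloride channel, and ABCC8 and ABCC9, the regulatory subunits of ATP-sensitive potassium channels, had none either. ABCA13, the longest record at 476 kb, had 9 internal peaks up to 12.4-fold, and ABCB5 had none.

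ABCC6, which is needed to keep soft tissue from mineralising, had 7.25-fold at its start and 11 summits in its record, up to 16.0-fold. All 11 lay between 16198012 and 16224000 on chromosome 16, the part nearest the start. The pseudogene records ABCC6P1 and ABCC6P2 carry copies of parts of ABCC6, and they held 5 and 1 H3K27ac summits. Reads could be shared among these copies, so the values of ABCC6 are uncertain, and the share of such reads was not tested.

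Inside their records, the ABC genes held H3K27ac in 31 of 47 cases, or 66.0%, against 56.3% of all genes. ABC records are long, with a median of 82.7 kb against 24.1 kb. Among records of at least 50 kb the shares were 21 of 31, or 67.7%, and 69.5%. The rate was 2.4 summits per 100 kb of record both in the family (105 summits) and over all genes, so the number of summits per length was the same in both. The 84 peaks inside the records and away from every gene end had a median fold of 5.93 and a median width of 628 bp, against 5.55 and 579 bp for 21233 such peaks over all genes. Summits inside the records, with those near an end now counted too, were spread unevenly: ABCB8 had 31.0 per 100 kb and ABCD4 22.6, whereas ABCC4 had 0.355 in 282 kb, its start peak alone.

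**Figure D3:**
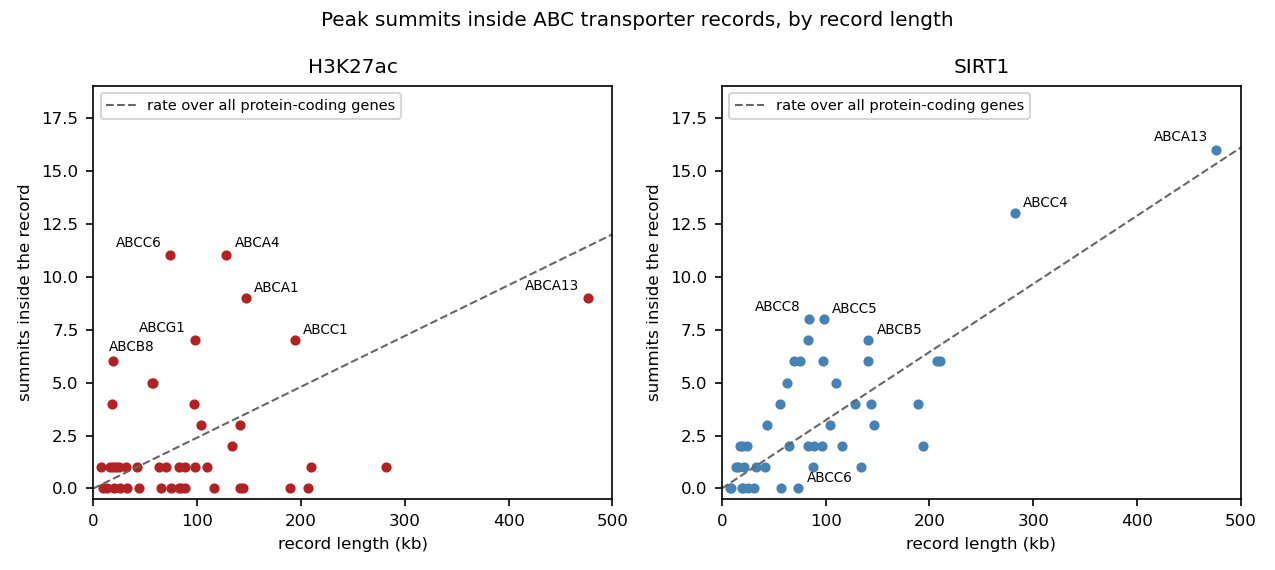
Number of H3K27ac (left) and SIRT1 (right) summits inside each ABC transporter record described in the text (y axis) by record length in kb (x axis). The dashed line is the rate over all protein-coding genes, 2.4 and 3.22 summits per 100 kb. H3K27ac counts scatter widely, with 11 at ABCC6 and at ABCA4 and 0 in 16 records. SIRT1 counts are highest at the 2 longest records, 13 at ABCC4 and 16 at ABCA13. They scatter too, with 2 at ABCC1 (194 kb) and 8 at ABCC8 (84.3 kb).

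SIRT1 had a summit at an end of 6 of the 47 records, or 12.8%, beside 9.34% of all genes. At the 5′ end the count was 2 of 37 (5.41%) against 3.43%, at the 3′ end 4 of 37 (10.8%) against 6.43%, and at any RefSeq start 2 of 37 (5.41%) against 4.28%. The genes differ between the first and last count: ABCC12 is in both, ABCD3 only in the first. ABCD2 is only in the last, with a peak of 2.2-fold 650 bp downstream of a start inside its record. With so few genes these shares are close to the background. The 6 peaks were those of ABCC2 (2.94-fold, 457 bp past the 3′ end), ABCG4 (2.94-fold, 947 bp past it), ABCB9 (2.9-fold, 743 bp past it), ABCC5 (2.82-fold, 561 bp before it), ABCD3 (2.89-fold, 451 bp upstream of the record's 5′ end) and ABCC12 (2.2-fold, 33 bp downstream of the start). Each had a −log10 q of 0, meaning a q of 1, and rested on 3 fragments, or 2 at ABCC12. None of the 6 was left among peaks with a fold of at least 4, with at least 4 fragments or with a q of at most 0.05. At the exporters ABCA1 and ABCG1, and at all 16 of their partners, no SIRT1 summit lay at an end.

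SIRT1 peaks inside ABC records were common and weak. They were found in 38 of 47 records, or 80.9%, against 50.3% of all genes. Among records of at least 50 kb the shares were 29 of 31, or 93.5%, against 88.9%, and the rate was 3.59 per 100 kb (157 summits) against 3.22. The shares thus lay closer among records of at least 50 kb, a limit that does not match the lengths of the 2 sets. The 160 distinct peaks had 2 fragments in 58 cases, 3 in 80, 4 in 18 and 5 in 4, and the share on 2 or 3 fragments was 84.4% in the whole list. For 138 of the 160 the −log10 q was 0. The highest values were 4.41-fold at ABCC5 and 4.17-fold at ABCC4, inside both records, on 5 fragments with a −log10 q of 0.614. ABCA13 had the most SIRT1 peaks, 16, followed by ABCC4 with 13, which are also the 2 longest records. Records with no SIRT1 peak included ABCA7, ABCB6, ABCB8, ABCC3, ABCC6, ABCE1, ABCF1 and ABCF3, whose records are between 7.81 and 73.9 kb long.

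**Figure D4:**
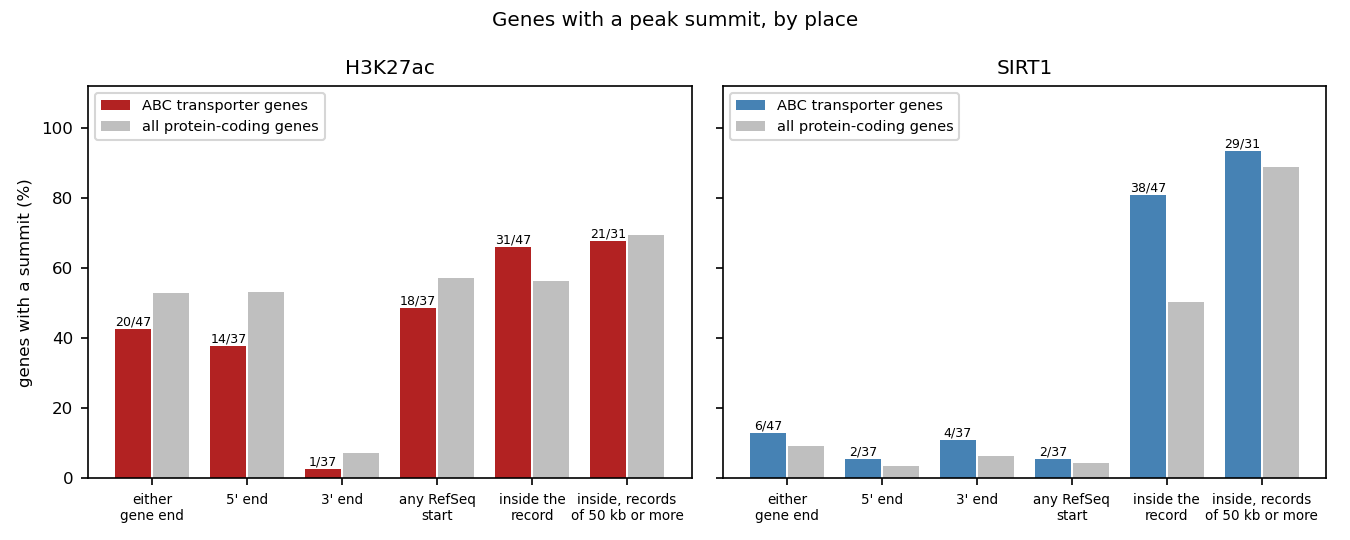
Percent of genes with a peak summit in each place (y axis, from 0) for ABC transporter genes, with the number of genes above each bar, and for all protein-coding genes in grey. For H3K27ac the family lies below all genes at the ends and close to them inside long records; for SIRT1 the large gap inside all records (80.9% and 50.3%) narrows in records of 50 kb or more (93.5% and 88.9%).

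The 2 marks seldom met. Both lay at ends of 2 of 47 records (4.26%, against 3.39% of all genes), ABCB9 and ABCC5, and in both cases H3K27ac was at the start and SIRT1 at the other end of the record, 57247 and 97389 bp from the start. Among the 160 SIRT1 peaks, 2 (1.25%) shared at least 1 base with an H3K27ac peak, beside 712 of 95517 (0.745%) in the whole list. At ABCB9 a SIRT1 peak of 2.73-fold on 3 fragments lay within the internal H3K27ac peak of 35.2-fold, with summits 948 bp apart. At ABCD4 a peak of 3.67-fold on 4 fragments met an H3K27ac peak of 4.13-fold, with summits 57 bp apart. A count of 2 does not set the family apart from the list.

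Promoters with and without an H3K27ac summit at the start differed in base composition. The measure was the number of CG dinucleotides in the 250 bases before the start, relative to the number that the C and G content would give. In the 15 promoters with an H3K27ac summit within 1 kb of the RefSeq start (ABCD3 included, and ABCF2 counted with its read-through record) the median ratio was 0.853, from 0.452 at ABCA2 to 1.09 at ABCE1, and 13 were at 0.6 or more. In the 22 without, the median was 0.333, from 0 at ABCC11 to 1.13 at ABCC9, and 8 were at 0.6 or more. These 22 include ABCB1, ABCG2 and ABCC11, which had an H3K27ac summit at another RefSeq start, inside the record, that was not the start scored here. Over all genes the medians were 0.845 (8632 promoters) and 0.409 (7210 promoters). The shares at 0.6 or more were 86.7% and 36.4% in the family and 85.4% and 36.7% over all genes, so the family followed the general split. The printed sequences show it: ABCE1 has 24, ABCB9 27 and ABCD3 34 CG dinucleotides in 250 bases, whereas ABCB11 has 2 and ABCC2 has 1. ABCA1, with 16 and a ratio of 0.682, had a lower ratio than most acetylated promoters, although its start fold was the highest of the family. The 8 unmarked members with a CpG-rich promoter were ABCA3, ABCA5, ABCA7, ABCB6, ABCC9, ABCF1, ABCG4 and CFTR.

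**Figure D5:**
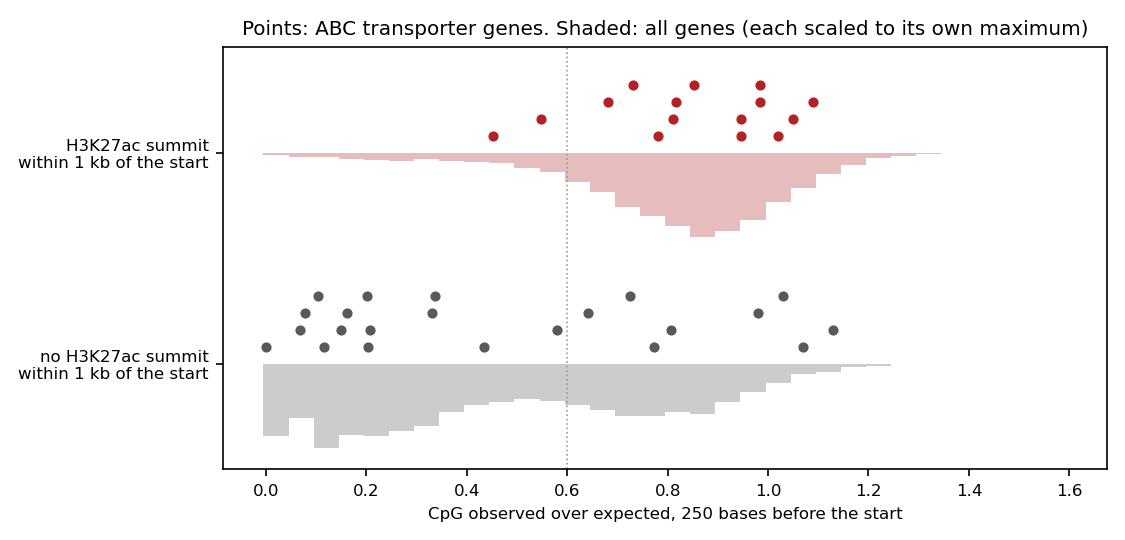
CpG observed over expected ratio in the 250 bases before the RefSeq start (x axis) for 37 ABC transporter promoters, split by an H3K27ac summit within 1 kb of that start; points are staggered for legibility. Shaded histograms hang below each line for all genes, each scaled to its own maximum, and the dotted line marks 0.6. The 15 marked promoters have a median of 0.853 and the 22 unmarked ones 0.333.

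The motifs below were searched on both strands of the same 250 bases. The GC box GGGCGG was in 18 of 37 ABC promoters (48.6%) and in 55.8% of 15842 promoters of all genes. ABCF2 and its read-through record share a promoter and both count among the 18. The E-box CACGTG was in 6 ABC promoters (16.2%) and in 7.8% of all. A direct repeat of AGGTCA with 4 bases between, the arrangement that liver X receptors bind, was allowed at most 2 mismatches. It matched 4 ABC promoters (10.8%), those of ABCA1, ABCC6, ABCD2 and CFTR, and 1.78% of all promoters. In the printed ABCA1 promoter the match is tgaccgatagtaacct, 69 to 54 bases before the start with 2 mismatches. The repeat reads on the strand complementary to the printed one. CACGTG lies 147 to 142 bases before the start, and GGGCGG occurs 3 times. TGACGTCA was in ABCE1 alone (2.7%, against 2.29%), 98 to 91 bases before its start, and TGANTCA was in ABCB11 alone (2.7%, against 5.0%). The ETS motifs CCGGAAGT and GAGGAAGT and the NRF1 motif GCATGCGC were in 0 of 37, against 5.09%, 2.1% and 3.72% of all promoters. A match describes letters in this window and is no measurement of binding.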

How the data were processed

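Peak lists for H3K27ac and SIRT1 were used, 1 library each; the input sample's signal was not analysed here. The build hg38 and the tools MACS2 and deepTools are named, per the submitters' processing notes. Their versions, the aligner, the control and the handling of reads that match several places are details not given in the sources used here. The authors deposited for each peak a fold (a ratio to local background), a −log10 p, a −log10 q and a score; the deposited score was not used.

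Gene records came from RefSeq (GRCh38), chromosomes 1 to 22, X and Y, and promoters from RefSeq (GRCh38.p14). A peak was placed by its summit. The fragments at a summit were recovered as the whole number n for which fold is n plus 1 over background plus 1 and p is a Poisson tail; 263 of 270 entries had exactly 1 solution, and at the other 7, all high H3K27ac peaks, the nearest whole number was taken and is not printed. The step was tested on simulated data.

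The values of 2 members are not reported here, although the totals count them. The other members were accounted for by role; values were given in full for ABCA1, ABCG1, members with SIRT1 at an end and up to 3 members per role with the highest H3K27ac end fold. Other members and peaks were named after their values were seen. The members and lists were chosen with earlier results of these data known. Windows of 500 and 2500 bp, peak overlap, fold, q and fragment minimums and flanks of 25 and 100 kb were tried. Software was scipy 1.17.1, matplotlib 3.10.9, pandas 2.3.3 and numpy 2.4.6 under Python 3.11.15.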

Additional observations from a re-analysis of the deposited data

Results flagged for a closer look

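The H3K27ac list held 551 peaks on alternate contigs of chromosome 6, which no comparison used, and the SIRT1 list held 64 there. They drew attention because signal lay outside the chromosomes analysed while the input, which would show the background on these contigs, was not analysed here. ABCF1, the member in the major histocompatibility region of chromosome 6, had no peak of either mark on the primary chromosome, where 42 H3K27ac peaks and 1 SIRT1 peak lay within 1 Mb of it; the part of the contigs in this was not tested.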

How the results depend on the processing

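Of 38 alternatives, 24 left the count within 1.5 times the reported one and 14 did not; the cause was not tested. Among the 24 is H3K27ac at the 5′ end only, which repeats the reported count at the start and could not move. Counts of H3K27ac records held except with an end window of 500 bp, which gave 12 with H3K27ac, 3 with SIRT1 and 0 with both. A window of 2500 bp gave 24 with H3K27ac, 13 with SIRT1 and 5 with both. Shares of all genes under these and the following settings are not given here, so the counts do not place the family beside other genes. A fold of at least 4 left 0 records with SIRT1 and 0 with both at an end, and 0 SIRT1 peaks in the ABCA1 and in the ABCG1 window. The 20000 strongest peaks of each list gave 2 with SIRT1 and 0 with both. No record kept SIRT1 at an end under a minimum of 4 fragments (0) or under a maximum q of 0.05 (0). With flanks of 100 kb the ABCA1 window held 6 SIRT1 peaks. Further choices, made after seeing the data, moved their counts by less than 1.5 times: any RefSeq start gave 18 in place of 14, and leaving out the read-through record gave 19 with H3K27ac in place of 20, 6 with SIRT1 and 2 with both. With 50 bases after the start in the promoters, 21 members again had a CpG ratio of at least 0.6. No paired analysis was possible because each antibody has 1 library. The SIRT1 list limits its own counts, since most peaks rest on 2 or 3 fragments and have a −log10 q of 0, so a SIRT1 count here says where the list has peaks and not where SIRT1 was bound. Without replicates, counting error is the only error that could be described.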
